A study of Mus musculus with 4 samples.

Results

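The choroid plexus is the secretory tissue of the brain ventricles, and 36 genes known for its epithelium were read on 4 arrays of mouse cerebellum. The list was chosen with these data in view, because many of its genes were high on 1 array, that of control replicate 2. Each member was found by the RefSeq accession of its probes. All 36 had a probe among the 22911 genes that could be named, 46 probes in all, and 9 genes had more than 1 probe. Values are log2 of the processed spot signal less the 75th percentile of the array, so 0 is that percentile. Where a gene had several probes, the probe that was brightest on average is given unless stated.

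The animals were C57BL/6 mice of postnatal day 28. The 2 control samples carried loxP-flanked Derlin-2 alleles on both chromosomes (Derlin-2flox/flox). The 2 knockout (KO) samples, Derlin-2_KO, came from a cross of such floxed animals with mice in which the nestin promoter, active in neural precursors, drives Cre recombinase. No other allele or agent is named, and the labels do not say whether a sample was 1 mouse or a pool, whether the controls were littermates, how the cerebellum was trimmed from the roof of the fourth ventricle, or whether Cre acts in choroid plexus. Derlin-2, encoded by Derl2, is a membrane protein of the endoplasmic reticulum that serves in the removal of misfolded proteins.

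Choroid plexus hangs into each ventricle as fronds of a single epithelial layer over a core of leaky capillaries, fibroblasts and macrophages. The epithelium makes cerebrospinal fluid by moving ions and water from blood to ventricle, and secretes carrier proteins, above all transthyretin. The plexus of the fourth ventricle lies against the underside of the cerebellum. Its cells are not part of cerebellar tissue proper.

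Promoter sequence was looked at because the members moved together and because 2 of them encode homeodomain transcription factors, Otx2 and Msx1. The 250 bases before the annotated start were searched on both strands for TAATCC, the core bound by OTX2 (reverse complement GGATTA), and for CAATTA, a core bound by MSX1 (reverse complement TAATTG). The motifs begin alike on one strand and were counted separately. RefSeq (GRCm38.p6) gave a promoter for 28 of the 36 members and for 27025 genes in all. Some members had several annotated starts, and a member counted if any of its windows held the motif. TAATCC occurred in 2 of the 28 (7.14%), Ace and Otx2, against 7.21% of all genes. CAATTA occurred in 4 of the 28 (14.3%), Cab39l, Kcnj13, Otx2 and Tmem72, against 8.3% of all genes. The Otx2 matches to CAATTA lie in windows that are not shown. A match is a string of letters and not a measured binding site. Shown 5′ to 3′ are the 2 windows that hold TAATCC, in Otx2 (chr14:48665110-48665359, minus strand) and Ace (chr11:105967698-105967947, plus strand). With them are the Kcnj13 window (chr1:87394730-87394979, minus strand), which holds CAATTA, and for comparison that of Aqp1 (chr6:55336049-55336298, plus strand), which holds neither. Aqp1 was among the members highest on control replicate 2. Capitals mark the motifs, on either strand.
Otx2: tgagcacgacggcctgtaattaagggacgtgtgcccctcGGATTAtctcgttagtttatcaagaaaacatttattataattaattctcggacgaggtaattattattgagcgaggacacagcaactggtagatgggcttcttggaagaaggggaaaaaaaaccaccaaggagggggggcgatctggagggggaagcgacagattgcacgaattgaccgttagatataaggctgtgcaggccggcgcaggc
Ace: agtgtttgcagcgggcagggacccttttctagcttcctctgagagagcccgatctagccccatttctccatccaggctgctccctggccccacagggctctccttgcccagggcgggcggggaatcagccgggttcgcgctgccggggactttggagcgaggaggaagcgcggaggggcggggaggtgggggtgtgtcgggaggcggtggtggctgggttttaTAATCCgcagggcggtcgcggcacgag
Kcnj13: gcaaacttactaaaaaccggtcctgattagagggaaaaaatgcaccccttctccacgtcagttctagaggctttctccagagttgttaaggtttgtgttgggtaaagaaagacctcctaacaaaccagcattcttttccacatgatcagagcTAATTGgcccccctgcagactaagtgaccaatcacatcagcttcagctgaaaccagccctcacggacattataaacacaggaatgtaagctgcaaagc
Aqp1: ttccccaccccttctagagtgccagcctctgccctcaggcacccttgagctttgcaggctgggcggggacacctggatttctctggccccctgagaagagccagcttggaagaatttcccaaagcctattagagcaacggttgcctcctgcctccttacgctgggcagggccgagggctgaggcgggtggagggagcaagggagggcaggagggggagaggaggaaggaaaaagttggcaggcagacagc

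Each array held 59305 non-control spots, of which 66.4% to 69.4% were well above background and 0 were saturated. The number of arrays, 2 per group, limits every comparison, and all lay on the same slide with the groups at different positions, so position and group cannot be told apart. P-values therefore measure the spread between these samples, which may be technical. Derl2 followed the group labels: the controls read 2.13 and 2.20, the KO arrays 0.81 and 0.70. Markers of cerebellar neurons were detected on all arrays. The median of 8 granule cell genes lay between 6.01 and 6.06, and that of 7 Purkinje cell genes between 6.69 and 6.81. The Purkinje gene Car8 was uneven, at 3.99 and 3.13 in control and 1.02 and 3.78 in KO samples.

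Every member was highest on control replicate 2, as were 29.7% of all genes. There, all 36 were well above background, against 31 on control replicate 1, 35 on KO replicate 1 and 32 on KO replicate 2, and 30 were so on all 4 arrays. Of the 36, 27 were at least 2-fold above the highest of the other 3 arrays, 15 at least 8-fold and 5 at least 32-fold. Over all 17330 named genes that were well above background somewhere, 0.739% met the 2-fold rule for control replicate 2. The same rule took 1.3% of genes for control replicate 1, 0.248% for KO replicate 1 and 0.237% for KO replicate 2. Because this contrast chose the members, the count is a description and carries no test. The median of control replicate 2 less the mean of the other 3 arrays was 3.03 over the members and 0.04 over all genes. Control replicate 2 is 1 array, so they have no replicate check. In a bulk sample, more cells of a type and more RNA per cell cannot be told apart.

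**Figure D1:**
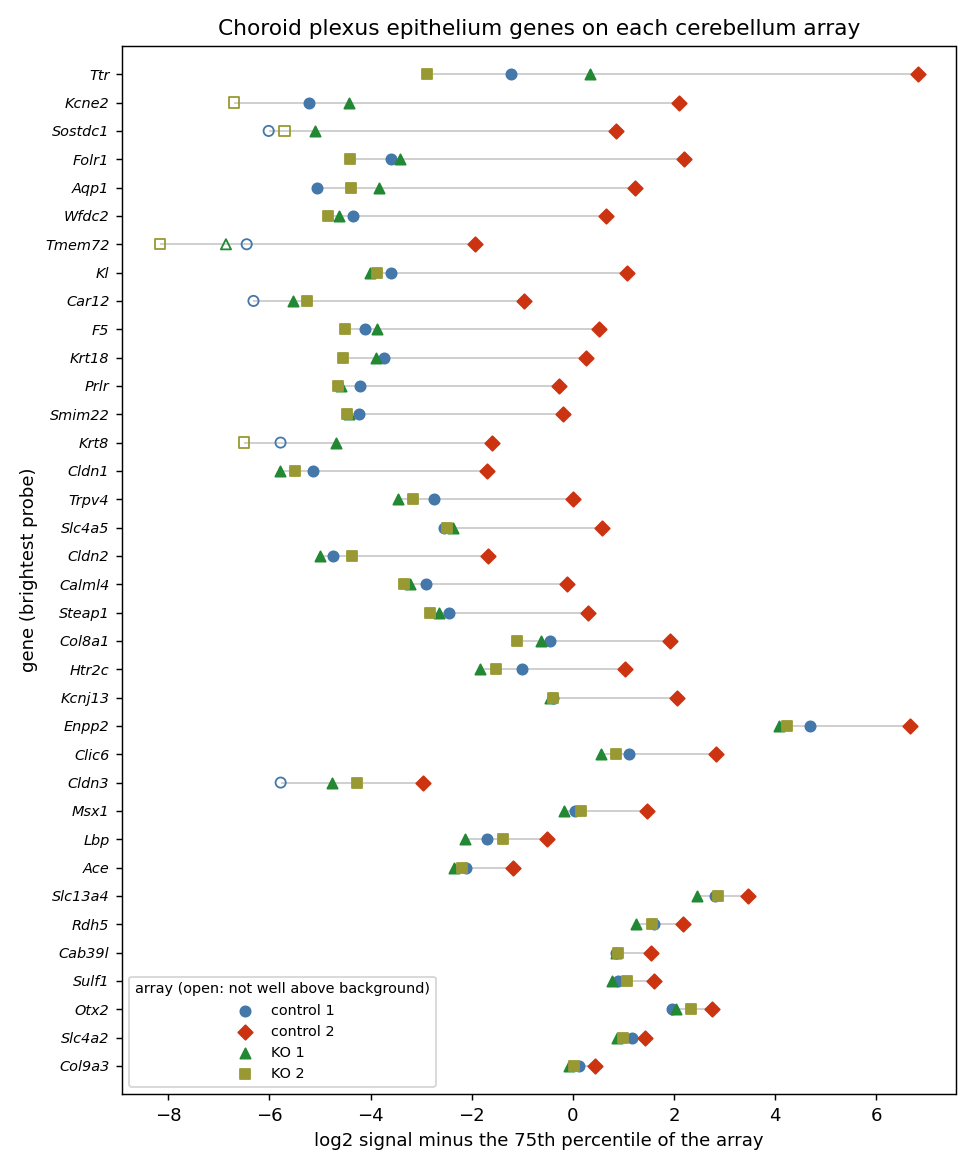
Log2 signal less the array's 75th percentile for the 36 genes on each of the 4 arrays, ordered by control replicate 2 less the mean of the other arrays; each point is 1 array, and open symbols were not well above background. The red diamonds of control replicate 2 lie to the right in every row, and the other 3 arrays lie close together for most genes, with Ttr as the widest exception.

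The secreted proteins held the largest differences, with a median of 4.89 over 7 genes. Ttr encodes transthyretin, the carrier of thyroxine in cerebrospinal fluid. Control replicates 1 and 2 read −1.23 and 6.82, and KO replicates 1 and 2 read 0.33 and −2.87. Control replicate 2 was thus 89.7-fold above the next array, and the other 3 were themselves spread widely (SD 1.6, n = 3). Sostdc1, a secreted inhibitor of BMP and Wnt signalling, read 0.85 on control replicate 2. It was −6.02 on control replicate 1 and −5.70 on KO replicate 2, both not well above background, and −5.10 on KO replicate 1. Kl, or klotho, a co-receptor for FGF23 that is also shed into the fluid, read 1.06 on control replicate 2. On the other arrays it lay between −4.01 and −3.60, a narrow range (SD 0.212, n = 3).

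The remaining secreted members followed in smaller steps. Wfdc2, a whey acidic protein family member of epithelia, was 0.66 on control replicate 2 and between −4.84 and −4.34 elsewhere. F5, coagulation factor V, was 0.52 against −4.50 to −3.86. Enpp2, or autotaxin, which makes lysophosphatidic acid, was bright everywhere, at 6.67 on control replicate 2 and 4.70, 4.07 and 4.23 on control replicate 1, KO replicate 1 and KO replicate 2. Enpp2 is also expressed by oligodendrocytes, and its difference was 2.34. Lbp, the lipopolysaccharide-binding protein, was the secreted gene that missed the 2-fold rule, at −0.52 against −1.38 on the next array.

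Among the 8 transporters and channels the median was 2.76, and 6 met the 2-fold rule. Kcne2, a potassium channel subunit of the apical membrane, read 2.10 on control replicate 2, against −5.22 on control replicate 1 and −4.42 on KO replicate 1. KO replicate 2 gave −6.69, not well above background. Control replicate 2 was 91.7-fold above the next array. Aqp1, the water channel of the apical membrane, read −5.05 and 1.23 in control and −3.83 and −4.39 in KO samples.

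Slc4a5, a sodium bicarbonate cotransporter, was 0.58 on control replicate 2 and between −2.54 and −2.37 elsewhere. Trpv4, an osmosensitive calcium channel, was 0.00 against −3.45 to −2.74. Kcnj13, the inward rectifier Kir7.1, was 2.06 against −0.45 to −0.39. Its other 3 arrays were nearly equal (SD 0.0323, n = 3). Clic6, a chloride channel family member, was 2.84 against 0.55 to 1.11. Slc13a4, a sulfate transporter also found in meninges, and Slc4a2, a broadly expressed anion exchanger, were 1.5-fold and 1.2-fold above the next array and so missed the rule.

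All 3 surface receptors met it. Folr1, the folate receptor that carries folate across the epithelium, read 2.19 on control replicate 2, against −3.59 on control replicate 1 and −3.42 and −4.41 in KO samples. Prlr, the prolactin receptor, was −0.28 against −4.65 to −4.22. Htr2c, a serotonin receptor that neurons also express, was 1.03 against −1.83 to −1.01.

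The junction and cytoskeleton genes all met the rule, with a median of 3.77. Krt18 and Krt8 encode the paired keratins of simple epithelia. Krt18 was 0.27 on control replicate 2 and −4.55 to −3.73 elsewhere. Krt8 was −1.60, and on the other arrays it was well above background on KO replicate 1 alone, at −4.68. Claudins seal or open tight junctions. Cldn1 was −1.70 against −5.79 to −5.15, and Cldn2, a pore-forming claudin, was −1.67 against −4.99 to −4.36. Cldn3 was −2.97 on control replicate 2 and −4.76 and −4.27 on the KO arrays. It was not well above background on control replicate 1, at −5.78.

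The transcription factors stood apart by little. Otx2, a homeodomain factor that choroid plexus and some cerebellar precursors express, read 1.96 and 2.76 in control and 2.05 and 2.33 in KO samples. Msx1, a homeodomain factor of the dorsal midline, read 0.04 and 1.46, and −0.17 and 0.16. Msx1 was 2.47-fold above its next array and Otx2 1.35-fold.

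Of the 5 enzymes, 2 met the rule. Car12, a membrane carbonic anhydrase, was −0.96 on control replicate 2 and −5.53 and −5.25 in KO samples. On control replicate 1 it was not well above background, at −6.32. Steap1, a metalloreductase, was 0.30 against −2.82 to −2.45. Ace, the angiotensin-converting enzyme that vessels also carry, Sulf1, a sulfatase acting on heparan sulfate, and Rdh5, a retinol dehydrogenase, were 1.89-fold, 1.44-fold and 1.48-fold above the next array. In the matrix pair, Col8a1, a short-chain collagen, was 1.93 against −0.45 on the next array, and Col9a3 was 1.24-fold above its next array.

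Calml4, a calmodulin-like protein of brush borders, was −0.12 on control replicate 2 against −3.35 to −2.90. Smim22, a small membrane protein, was −0.20 against −4.46 to −4.24. Tmem72, a membrane protein, was −1.94 there and not well above background on any other array. It was at least 19.2-fold higher on control replicate 2 than the mean of the other arrays. This bound sets each other array at the higher of its own value and its lowest signal well above background. Under normexp background correction, whose offset raises dim signals, the difference of Tmem72 from the mean of the other arrays was 1.75 in place of 5.22. Cab39l, a scaffold of the LKB1 kinase complex, was 1.59-fold above its next array. By the 2-fold rule, the members just inside were Cldn3 (2.46-fold) and Msx1 (2.47-fold), and those just outside were Ace (1.89-fold) and Lbp (1.82-fold).

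Second probes read the same RNA on the same arrays. Since the list was chosen with these arrays in view, they give no independent check. The dimmer Ttr probe read 2.72 on control replicate 2 and −5.21 on KO replicate 1, and was not well above background on the other 2 arrays. The second Slc4a5 probe differed by 3.15, beside 3.05 for the brighter one, but was not well above background on control replicate 1 and KO replicate 2. The second probe of Cab39l differed by 0.66, against 0.69. Probes disagreed in size for Prlr, whose 2 brighter probes differed by 4.20 and 2.19. Its dimmest probe was at least 3.1-fold above the mean of the other arrays by the same kind of bound. The second Folr1 and Trpv4 probes were not well above background on the other 3 arrays. By the bound used for Tmem72, they were at least 12.5-fold and 2.14-fold above the mean of those arrays. The second Otx2 and Col9a3 probes differed by 0.30 and 0.31, and for Otx2 it was not highest on control replicate 2 (−1.63, against −1.57 on KO replicate 2). The second Cldn2 probe was not well above background on any array.

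The spots around the members were read in the same way. Of those directly next to the 46 member spots, 243 were well above background on control replicate 2. Of these 243 neighbours, 6 were at least 2-fold above the mean of the other arrays. Of all non-control spots well above background on control replicate 2, 436 were, or 1.07%, a smaller share. The neighbours may include control spots, so the sets are not quite alike. The median difference of the neighbours was 0.01, taken over the member spots. No member spot lay on a patch of raised local background.

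Ranked over the 16741 genes well above background on control replicate 2, by distance to the next array, members took 5 of the first 10 places, 13 of the first 20, 22 of the first 50 and 27 of the first 100. Among the 12 highest genes outside the list were Fshb, 4930432J09Rik, Prr32, 4933405O20Rik, Tex22, D730003K21Rik, Nt5c1b, Defb11, Tmprss11a, Slc28a3 and Crhr2. Of these, 9 were well above background on control replicate 2 alone. Prr32, a proline-rich protein, read −1.48 there, at least 29.4-fold above the mean of the other arrays by the bound used for Tmem72. Slc28a3, a nucleoside transporter, read −2.97 and was at least 10.5-fold above that mean by the same bound. Crhr2, a receptor for corticotropin-releasing hormone peptides, read −1.41 against −5.32 to −4.86. Fshb, the beta subunit of follicle-stimulating hormone, read 7.37 against −8.31 to −7.83. Fshb, 4930432J09Rik and 4933405O20Rik came from spots on 2 short tracks of bright spots on that array, described in the closing section. The second probes of Tex22 and Nt5c1b were not well above background on any array.

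**Figure D2:**
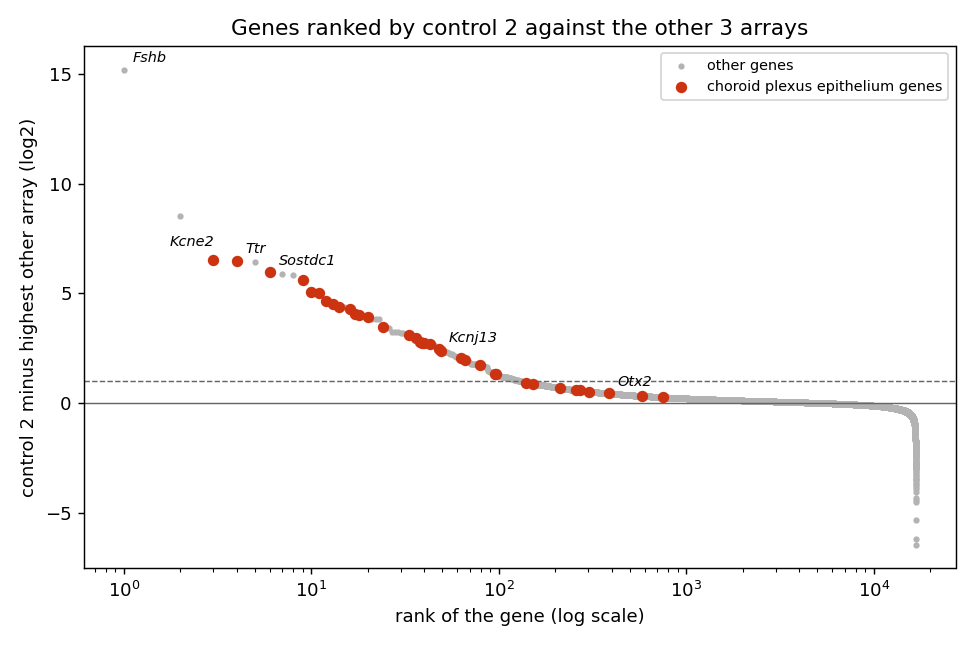
Each point is 1 gene well above background on control replicate 2, placed by rank (log axis) and by its distance on the log2 scale to the highest of the other 3 arrays; red points are the 36 choroid plexus genes and the dashed line is 2-fold. Red points fill many of the first 50 places, and Fshb stands alone at 15.2.

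A second list held 26 further genes known from choroid plexus, of which 25 were measured. It too was chosen with earlier results of these data known, so its counts carry no test. Of the 25, 7 met the 2-fold rule for control replicate 2, beside 0.739% of all genes, and the median difference was 0.24. Slc28a3 was at least 10.5-fold above the mean of the other arrays, as given above. Ecrg4, a secreted peptide precursor, differed by 3.46 and Slc16a8, a lactate transporter not well above background on KO replicate 2, by 2.51. The others were Slco1a5, Igfbp2, Slc2a12 and Tjp3. Slc15a2, a peptide transporter of the epithelium and of astrocytes, was lower on control replicate 2, by −0.80.

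Cells that lie beside the epithelium were read from their own markers. Of 12 endothelial and pericyte genes, 0 met the 2-fold rule and the median difference was 0.15. Plvap, a marker of leaky capillaries, lay between 1.08 and 1.36, with control replicate 2 at 1.16. Of 10 fibroblast genes, 0 met the rule, with a median of 0.16. Of 10 macrophage and microglia genes, 0 met it, with a median of −0.04. Cd163, Lyve1 and Mrc1, markers of macrophages at brain borders, differed by −0.97, −0.71 and −0.40.

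Of the 5 red blood cell genes measured, 0 met the 2-fold rule. All 5 were highest on control replicate 2, beside 29.7% of all genes, with a median difference of 0.49. The genes Hba-a1 and Hba-a2 are near-identical copies that their probes may not separate. Alas2, the first enzyme of haem synthesis in red cells, was 1.06 on control replicate 2 and 0.15 to 0.34 elsewhere. The list's median level was 6.51 on control replicate 2 and 5.56 to 5.84 on the rest. The part of blood in the members' values was not tested. Of 16 ependymal and motile cilia genes, 9 were highest on control replicate 2 and 0 met the 2-fold rule. Their median difference was 0.29, and the largest were Rsph1 (1.20), Spag6l and Cfap126 (1.03), in that order, parts of the ciliary axoneme or its base. Foxj1, the regulator of motile cilia, differed by 0.43. Of the 16, 11 lay above the mean of the other arrays. Hydin (−0.29) and Ccdc153 (−0.24) were among those below it.

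The other brain cell types had medians near that of all genes. The median difference was 0.04 for granule cells, 0.10 for Purkinje cells, 0.11 for oligodendrocytes and 0.05 for astrocytes and Bergmann glia, beside 0.04 for all genes. Quantile or spike-in scaling put the granule cell and astrocyte medians just below 0.

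**Figure D3:**
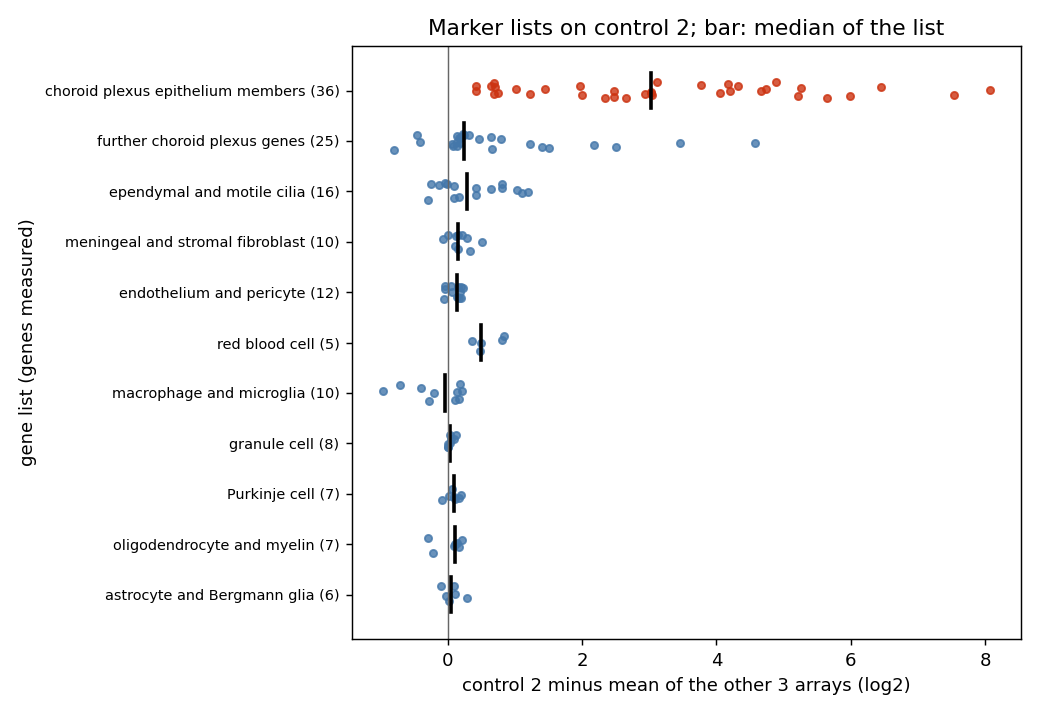
Control replicate 2 less the mean of the other 3 arrays, on the log2 scale, for each gene (point) of the choroid plexus list (red) and of 10 other lists (blue); the black bar is the median of a list. The choroid plexus list, chosen with this contrast in view, has a median of 3.03. The list of further choroid plexus genes has a median of 0.24, below those for ependymal genes (0.29) and red blood cells (0.49). The medians for vessels, fibroblasts, neurons and glia lie close to 0.

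Knockout was compared with control over 37516 probes with limma. The threshold was a Benjamini-Hochberg adjusted p of 0.05 and took 0 probes (0.0%); 14.0% had an unadjusted p under 0.05 (8.84% higher and 5.2% lower in KO). The brightest probe of 33 members entered this fit. Sostdc1, Krt8 and Tmem72 did not, since they were not well above background on both arrays of either group. All 33 differences were below 0, with a median of −1.60, but control replicate 2 chose the members and fixes that sign, so nothing is read from it. None passed; 1 member had an unadjusted p under 0.05, and the smallest limma adjusted p was 0.348, for Slc4a2. The mean for Ttr was 2.80 ± 5.69 over controls (SD, n = 2) and −1.27 ± 2.27 over KO samples (SD, n = 2), which leaves a difference of −4.07 (SE 2.94; limma adjusted p 0.56).

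Without control replicate 2, the comparison rests on control replicate 1 and both KO arrays, and the list was not chosen on it. The probe filter still used control replicate 2. Kcne2, not well above background on KO replicate 2, passed that filter through the controls. Cldn3 and Car12, not well above background on control replicate 1, passed it only through the KO arrays, so their direction is not read. In this fit the lone control is assumed to vary like the KO arrays. Limma called 0 of the 33 members, beside 98 of 37530 probes (0.261%). With spots on patches of raised local background left out, most of them on control replicate 1, it called 0 probes. At an unadjusted p under 0.05 there were 6 members, beside 11.1% of probes (6.93% higher and 4.18% lower in KO). Of these 6, Htr2c, Enpp2 and Trpv4 were lower in KO, and Cldn3, Car12 and Aqp1 were higher.

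Htr2c differed by −0.67 (SE 0.212), Enpp2 by −0.55 (SE 0.179) and Trpv4 by −0.57 (SE 0.204), with limma adjusted p of 0.403, 0.409 and 0.436. Aqp1 differed by 0.94 (SE 0.289; limma adjusted p 0.392). For Cldn3 and Car12 control replicate 1 was not well above background. Their KO means lay 2.26-fold and 1.23-fold above the lowest signal well above background on that array. None of these passes the threshold.

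Over the 30 members measured on all arrays, both KO arrays lay below control replicate 1 in 17 and above it in 4. Over all 36 they lay below it in 18, beside 44.1% of genes, and above it in 7, beside 24.9%. The 36 include Sostdc1, Krt8, Car12, Cldn3 and Tmem72, which were not well above background on control replicate 1. Tmem72 was so on control replicate 2 alone. Among the 16059 genes measured on all arrays, 45.0% were below and 23.9% above, so 17 of 30 is near the background. The median of KO less control replicate 1 was −0.20 over the 30 members and −0.06 over those genes. Taken alone, it was −0.23 for KO replicate 1 and −0.24 for KO replicate 2. Members lower on both KO arrays included Kl (−0.34, SE 0.177), Wfdc2 (−0.40, SE 0.19) and Clic6 (−0.41, SE 0.207), with limma adjusted p of 0.569, 0.544 and 0.558. Slc4a5, Kcnj13 and Cab39l differed by 0.11, −0.02 and 0.02.

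**Figure D4:**
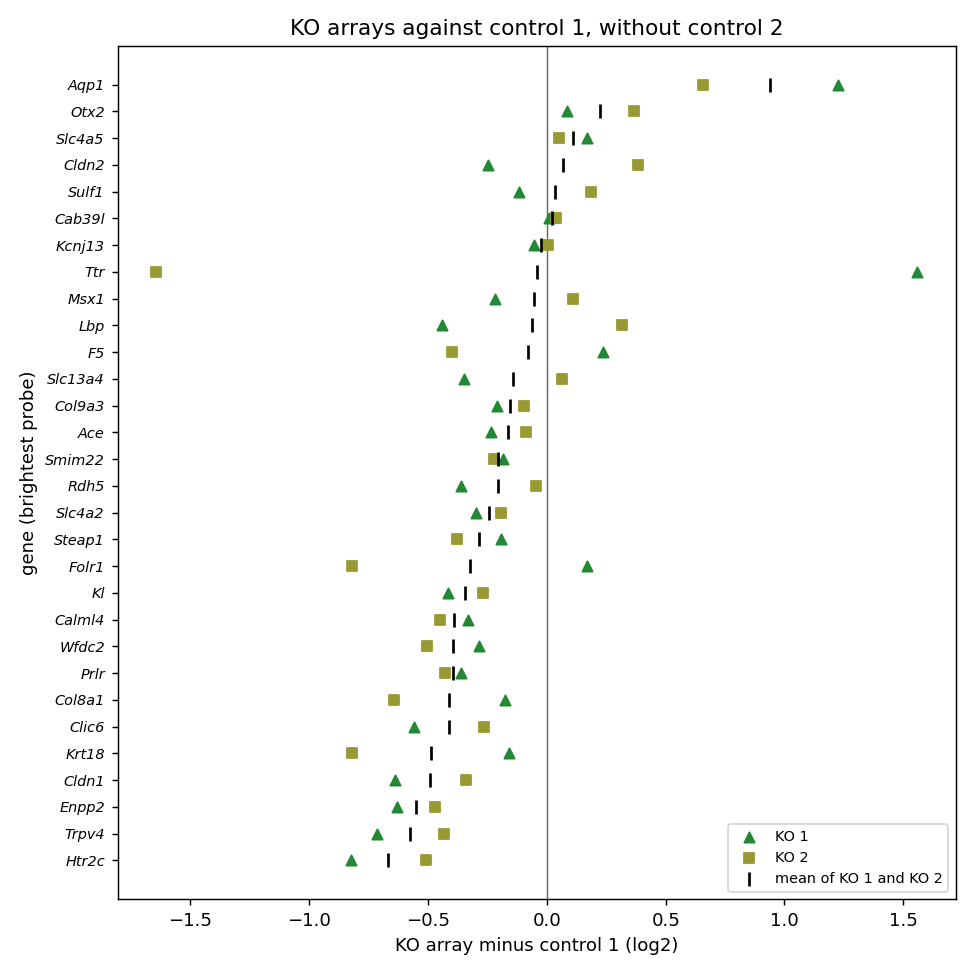
KO replicate 1 (triangles) and KO replicate 2 (squares) less control replicate 1, on the log2 scale, for the 30 members well above background on all 4 arrays, ordered by the mean of both (bars). Most points lie within 1 of 0, 17 genes have both KO arrays below 0, and Ttr has the KO arrays on opposite sides.

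The KO arrays differed from each other most in Ttr. KO replicate 1 was 9.23-fold above KO replicate 2, with control replicate 1 between them. Of the 30 members measured on all arrays, Ttr was the 1 that was at least 2-fold higher on KO replicate 1 than on KO replicate 2, beside 0.324% of the 16059 genes. Folr1 was 1.99-fold higher. Kcne2 and Krt8, well above background on KO replicate 1 and not on KO replicate 2, read −4.42 and −6.69, and −4.68 and −6.50. Of the 30 members, 12, Ttr and Folr1 included, were higher on KO replicate 1, beside 50.7% of genes, and the median of KO replicate 1 less KO replicate 2 was −0.11. This difference has no replicate check.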

How the data were processed

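Per the labels' protocols, 150 ng of RNA from each of 4 cerebellum samples was labelled with Cy3 for Agilent arrays of 1 colour. The intensity values in the deposited scanner files were background subtracted and detrended within an array. Per the file headers the scanner software was version 12.1.1.1; the submitters' processing notes name Agilent Feature Extraction 10.7.1.1. Software flags mark outlier spots and those well above background. The authors' deposited series table holds log2 values whose differences between columns equalled those of the scanner values, less 1 constant per array, within 0.01 for 100% of 35661 probes; its column medians were 0.0071 and −0.19 for control and −0.16 and −0.22 for KO, and its centre per probe stays unknown.

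Outlier spots were dropped, log2 processed signal was averaged per probe, and values were taken relative to the 75th percentile of their array. Of 35886 probes with a RefSeq accession, 91.9% were named through a RefSeq table (GRCm38.p6). Genes needed a probe well above background on at least 1 array; limma 3.58.1 (R 4.3.3) used probes well above background on both arrays of a group, without covariates. Replicate numbers share only a number. Scripts were tested on simulated data. Python 3.11.15 made the descriptions. Text names Derl2, all members by role, the 12 highest genes outside the list (1 of which is not reported here) and up to 3 genes per marker list, with some list genes and second probes chosen after their values were seen. Members and lists were chosen with earlier results of these data known. Alternatives were other scalings, normexp (offset 50), the deposited log2 table, other filters, flagged or patch spots (local background over 1.5 times the array median, with spots within 2 rows or columns), probe means, variances, a replicate block and each array left out. Normexp used the median spot intensity.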

Additional observations from a re-analysis of the deposited data

How the results depend on the processing

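Each of 498 member values computed under the alternatives put control replicate 2 above the mean of the other arrays, and 21 to 28 members met the 2-fold rule. The members were chosen on this contrast of the same arrays, so the shared sign carries no test. The members' median on control replicate 2 was 2.35 under normexp, whose offset raises dim signals, and 2.80 with probes well above background on all arrays, in place of 3.03. Genes meeting the rule there were 54 and 60 in place of 128. The members' median of KO less control replicate 1, −0.18 over all 36, was −0.15 under quantile normalization, −0.093 under spike-in scaling, −0.13 under normexp and −0.22 with probe means; with 1 array left out it was −0.24 to −0.20. On control replicate 2, quantile and spike-in scaling gave −0.025 and −0.018 for granule cells, 0.039 and 0.043 for Purkinje cells and −4.2e-05 and −0.0025 for astrocytes; probe means gave 0.054 for Purkinje cells, and leaving out 1 array gave 0.051 to 0.11.

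Limma calls of KO against control, 0, became 4 with an intensity trend, 2 under normexp and 1 each under quantile, median and spike-in scaling and without patch spots; 441 probes were past 2-fold without overlap, and leaving out 1 array gave 0 to 98, the latter without control replicate 2. With the replicate block it was 0, and the controls' and KO samples' differences by number correlated at 0.124 over probes. Calls against control replicate 1, 98, became 338 with no filter, 413 with an intensity trend, 226 under normexp and 0 without patch spots. No member had a limma adjusted p under 0.05 in any of these fits; the 2-fold rule without overlap uses no p and was not counted for members. Leaving out the bright tracks was chosen after the data were seen; it left 124 genes. Signal near background limits Kcne2, Sostdc1, Tmem72, Car12, Krt8 and Cldn3, which were not well above background on at least 1 array.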

Other observations

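A pair of short tracks of bright spots, outlined after the data were seen, lay on the array of control replicate 2 and held no member spot. Of the 225 spots there, 19 were at least 128-fold above the mean of the other 3 arrays, and 5 of these 19 were control spots that hold no mouse gene. The remaining 62751 spots held 6 such spots. Among these 6 were the member spots of the Ttr probes and of Kcne2, with differences of 9.07, 8.08 and 7.54. Fshb, 4930432J09Rik and 4933405O20Rik come from the tracks. Of the 8 spots around that of Fshb, 2 read 7.49 and 7.33 on control replicate 2 and −7.82 or lower on the other arrays, and 1 of the 2 is a spike-in control. The local background of the Fshb spot was 1.31 times the array median, which is under the limit of 1.5 used for patches. Among other pituitary genes, Cga, Prl, Gh and Pou1f1 were not well above background on any array. Control replicates 1 and 2 read −2.29 and −2.55 for Lhb, −4.10 and −4.52 for Tshb, and −0.55 and −0.35 for Pomc.

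Genes of motile cilia, which ependymal cells beside the plexus carry, were lower on both KO arrays than on control replicate 1 in 14 of 16, beside 44.1% of genes, with a median of −0.43. In the choroid plexus list this held for 18 of 36, with a median of −0.18, and in the oligodendrocyte and myelin list for 6 of 7, with a median of −0.38. Of the 36, 31 were well above background on control replicate 1. The differences between the lists were not tested.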
